A study of Mus musculus with 36 samples.

Results

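Among embryos that lack TET1, brains scored with the phenotype named inHB were compared with brains scored as normal. Members were taken from the sample titles: knockout (KO) libraries whose title ends in inHB, against KO libraries whose title ends in norm. That gave 3 inHB and 7 normal embryos, 10 of the 36 libraries of the series. A 4th KO library labelled inHB, embryo TP36.6 of the 30 ppm diet, was left out because its genotype is disputed: its title calls it KO, while the study's embryo list gives it as heterozygous. The titles do not spell out inHB, and the same embryo list records the 3 compared embryos under brain malformation. In the main comparison of autosomal methylation no difference between the phenotypes passed its test: mean methylation differed by -0.0217 percentage points, and 0 of 59108 tested 1 kb tiles were called. Other settings of the tile test called 0 to 3 tiles.

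TET1 oxidises 5-methylcytosine, the first step by which a methylated CpG can return to an unmethylated one, so regions that TET1 normally keeps low tend to gain methylation without it. Oxidative bisulfite treatment converts the oxidised forms away before sequencing, so the levels given here are 5-methylcytosine alone. Reduced representation libraries sample CpG-rich fragments of the genome, mostly promoters and CpG islands. The midbrain and hindbrain are set apart by a signalling centre at their border, where FGF8 and WNT1 are secreted and OTX2, GBX2, PAX2 and the Engrailed proteins position and maintain it.

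All 10 embryos were homozygous for the Tet1tm1Koh allele on the 129S6.cg background, were taken at E11.5, and each brain, from the rostral forebrain to the caudal hindbrain, was 1 library. Dams were heterozygous and received 30, 3 or 0.1 ppm folic acid (an excess, the control diet and a depletion, in that order), each with succinylsulfathiazole, an antibiotic that limits folate made by gut bacteria. Each diet had 1 inHB embryo, against 2 normal embryos on 30 ppm, 3 on 3 ppm and 2 on 0.1 ppm. Embryos are named by group and replicate: inHB KO replicate 3 is on 30 ppm, replicate 4 on 3 ppm and replicate 2 on 0.1 ppm. By label, 2 inHB embryos were male and 1 was female, and 4 normal embryos were male and 3 female. Only 1 litter held both phenotypes (inHB KO replicate 3 and normal KO replicate 6), so phenotype and litter cannot be told apart for the others. Normal KO replicates 1 and 3, both on 3 ppm, were littermates, and the tests and intervals treat them as independent. A whole brain mixes many cell types, and fewer cells of a type and a lower level in each cell cannot be told apart.

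The sequences below are the measured stretches of 4 of the tiles described further on, which were named by a rule on the compared values. Gpatch2l and Henmt1 had the smallest p in each direction, Prdm16 the largest drop, and Egf a promoter nearly unmethylated in normal KO embryos. They are mm10 (GRCm38.p6), plus strand, 5' to 3', with the CpGs that had at least 5 reads in all 10 embryos in capitals. Gpatch2l (chr12:86214338-86214469) and Egf (chr3:129725135-129725164) were higher in inHB embryos, and Henmt1 (chr3:108940350-108940436) and Prdm16 (chr4:154456518-154456679) lower, in values that did not pass the test. For Henmt1 the stretch is the longest run of its CpGs at most 50 bp apart.
Gpatch2l: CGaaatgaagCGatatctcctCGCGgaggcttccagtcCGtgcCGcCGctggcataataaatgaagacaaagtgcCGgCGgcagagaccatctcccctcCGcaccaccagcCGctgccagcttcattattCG
Egf: CGgcttaaCGtgtagccctcagCGcatgCG
Henmt1: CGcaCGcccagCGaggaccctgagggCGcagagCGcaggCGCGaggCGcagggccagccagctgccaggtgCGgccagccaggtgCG
Prdm16: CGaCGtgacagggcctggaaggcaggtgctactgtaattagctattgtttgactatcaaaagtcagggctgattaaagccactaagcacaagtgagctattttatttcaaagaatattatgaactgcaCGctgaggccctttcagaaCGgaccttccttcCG

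Libraries were checked against their labels first. At 1 CpG inside Tet1 (mm10, chromosome 10, position 62884019), picked because KO and WT libraries differ most there, the inHB embryos read 76.92 to 100% methylated over 13 to 16 reads. The 7 normal KO embryos read 72 to 96.15%, 7 of the 9 libraries labelled WT 0 to 7.317% and the 11 HET libraries 8.333 to 69.23%. The other 2 libraries labelled WT, normal WT replicate 5 and inHB WT replicate 1, read 36.36 and 40%, inside the HET range and against their label. They enter no test here, and WT ranges are given with and without them. Embryo TP36.6 read 45% over 20 reads, inside the HET range. Depth ranged from 26.01 to 28.74 M CpG calls in inHB and from 25.65 to 47.69 M in normal embryos. inHB KO replicate 4 spread its calls over fewer CpGs. It had 1.333 M autosomal CpGs with at least 5 reads, against 1.589 to 2.069 M in the other compared embryos. Calls per autosome stayed between 0.963 and 1.03 times the median of all libraries.

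1 of the compared embryos went against its label of sex. inHB KO replicate 4, the 3 ppm embryo labelled male, had a mean of 46.7% over the shared X chromosome CpGs, beside 46.85 to 47.3% in the 4 embryos labelled female and 34.15 to 35.14% in the 5 other embryos labelled male. Its X calls were 2.409% of autosomal calls, against 2.454 to 2.75% in females and 1.221 to 1.364% in males. Its Y calls were 0.0484% of autosomal calls, near the 0.0574 to 0.0884% of males and above the 0.00718 to 0.00922% of females. The other 9 compared embryos matched their labels on all 3 measures. Its littermate normal HET replicate 3, also labelled male and used here only in HET ranges, had the female pattern, at 46.78% X methylation, 2.68% X calls and 0.0093% Y calls. X and Y were left out of every comparison below, which used autosomes only.

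**Figure D1:**
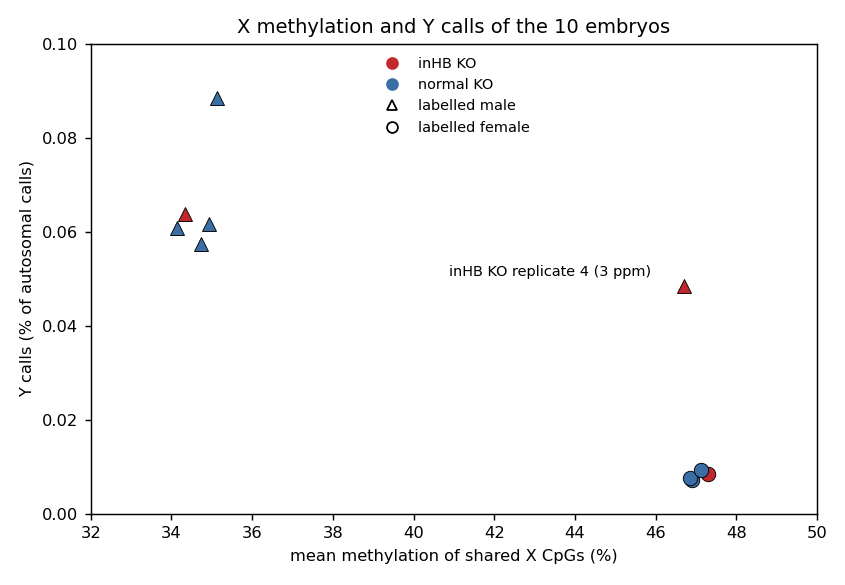
X methylation (x axis, mean % over shared X CpGs) against Y calls (y axis, % of autosomal calls), 1 point per embryo, red for inHB KO and blue for normal KO, triangles labelled male and circles labelled female. inHB KO replicate 4 sits at 46.7% and 0.0484%, apart from both sexes.

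Mean methylation was then compared over 1050263 autosomal CpGs with at least 5 reads in all 10 embryos. The inHB embryos had 36.64% on 30 ppm, 36.94% on 3 ppm and 36.96% on 0.1 ppm. The normal embryos ranged from 36.48 to 37.51%, with a median of 36.86%. All 3 inHB values lay inside the normal range. Averaged over the diets, inHB minus normal was -0.0217 points (SE 0.218, 95% interval -0.627 to 0.583), with an exact two-sided permutation p of 0.889 over the 36 ways of placing the phenotype within diets, of which the smallest possible p is 0.0278. The SE and interval take their spread from normal embryos of the same diet, since each diet had a single inHB embryo. This holds for every SE and interval below, so none reflects the spread of the inHB embryos. In the litter with both phenotypes, the inHB embryo had 36.64% and its normal littermate 36.66%. Without inHB KO replicate 4 the difference was 0.00963 points, and without either of the normal littermates of 3 ppm, replicate 1 or 3, it was -0.0481 or 0.0596. With reads pooled over CpGs the difference was -1.19 points (exact permutation p = 0.25), and 0.429 without inHB KO replicate 4. Over the CpGs that each embryo covered by itself, a set that differs between embryos, it was -2.94 points (exact permutation p = 0.139), and -0.97 without inHB KO replicate 4.

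The deposited regions that gained methylation in KO against WT brains hold the loci where the loss of TET1 shows most. Over 112730 shared CpGs in these regions, 3 diets joined, the inHB embryos had 52.19, 53.49 and 53.21% on 30, 3 and 0.1 ppm. The normal KO embryos ranged from 51.37 to 54.54%, median 53.19%. The libraries labelled WT had 37.79 to 43.71% and HET embryos 40.99 to 43.52%. Without the 2 libraries that read as HET at Tet1, which had 43.71 and 42.54%, WT embryos had 37.79 to 39.25%. KO lay above both genotypes, but the regions were defined on libraries of this series that include these, so the gap to WT is no independent result. Between the phenotypes the difference was 0.0526 points (SE 0.495, interval -1.32 to 1.43, exact permutation p = 0.861). On 30 ppm it was 0.447, on 3 ppm -0.112 and on 0.1 ppm -0.177 points. Without inHB KO replicate 4 it was 0.135 points. Embryo TP36.6 had 40.82%, below every KO embryo and near the HET embryos, and adding it under its label moved the difference to -1.84 points (exact permutation p = 0.528).

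**Figure D2:**
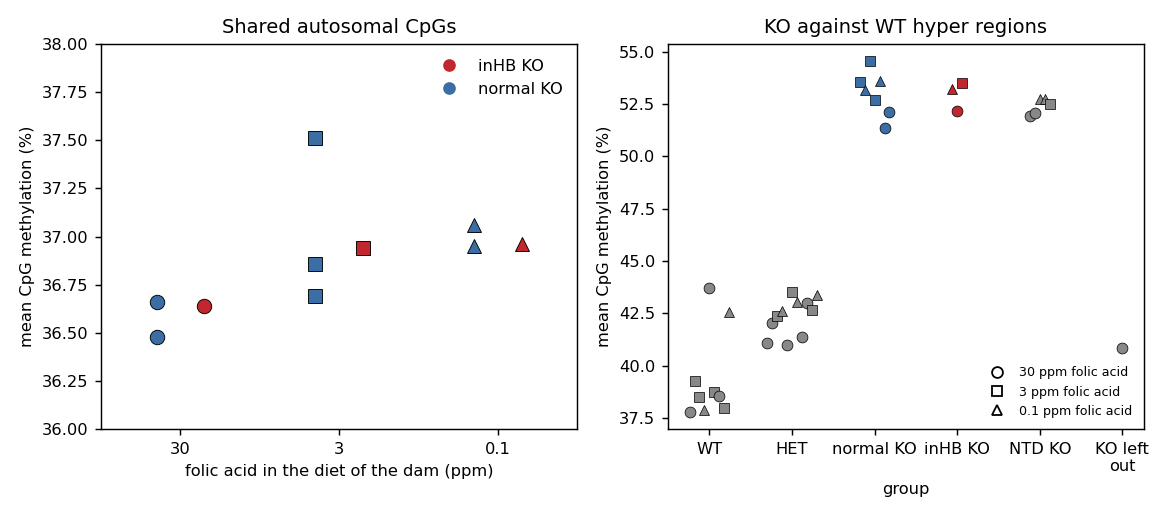
Mean CpG methylation (%) per embryo. Left, shared autosomal CpGs by maternal diet, on an axis from 36 to 38%, where each inHB embryo (red) lies within or beside the normal KO embryos (blue) of its diet. Right, KO against WT hyper regions by group, where both KO groups lie above 51% and the left-out KO library at 40.82%.

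The same comparison was made in 15 further sets of CpGs, and the 17 p-values were adjusted together. No adjusted exact permutation p was below 0.972. The smallest possible exact p was 0.0278, so after adjustment over 17 sets no set could fall below 0.05 by itself. Promoters, within 1 kb of a start site, had 10.3 ± 0.0761% (SD, n = 3) in inHB and 10.31 ± 0.182% (n = 7) in normal embryos, a difference of -0.00861 points (95% interval -0.348 to 0.331). Exons differed by 0.114 points (-0.57 to 0.799), introns by -0.0691 and intergenic CpGs by -0.0945. CpG-dense tiles, with 40 or more CpGs per kb in the genome, had a mean of 4.303% in inHB and 4.315% in normal embryos.

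The 9 gene lists take CpGs over whole genes and 1 kb upstream, so their means are not of promoters alone. Among them, the farthest from 0 was germline genes silenced by methylation. Such genes are kept off in the body by promoter methylation. Their CpGs had 71.96 ± 1.21% (SD, n = 3) in inHB and 71.58 ± 0.505% (n = 7) in normal embryos, a difference of 0.411 points (interval -0.559 to 1.38, exact permutation p = 0.361). By diet it was -0.446, 1.36 and 0.319 points on 30, 3 and 0.1 ppm, and without inHB KO replicate 4, the 3 ppm embryo, it was -0.0632 points. Imprinted loci, whole genes linked to stretches methylated on a single parental copy, differed by -0.231 points (interval -1.5 to 1.04).

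**Figure D3:**
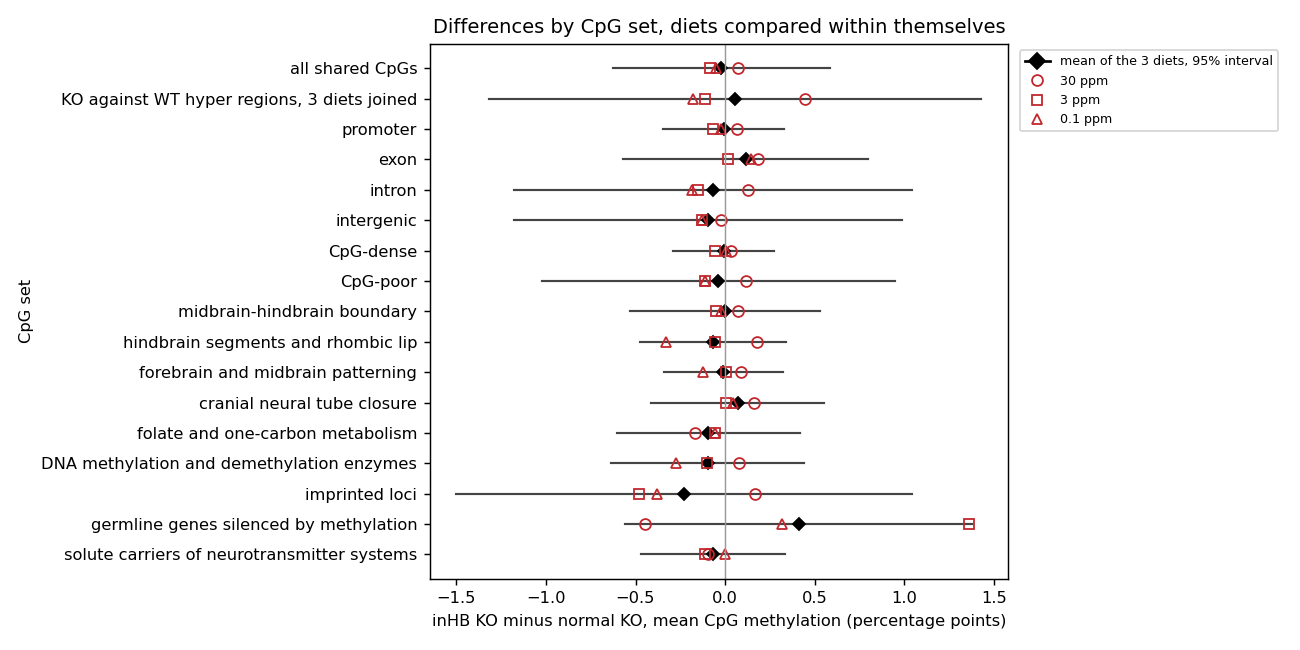
inHB minus normal KO in mean CpG methylation (percentage points, x axis) for 17 CpG sets (y axis). Diamonds are means of the 3 diets with 95% intervals, open symbols single diets. Every interval includes 0.

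Methylation was next tested tile by tile. A quasi-binomial test with diet as covariate was run on 59108 autosomal 1 kb tiles of at least 3 CpGs. Tiles had a median of 4 CpGs, and the median depth of an embryo lay between 60 and 112 CpG calls per tile. A read counts as 1 call for each CpG it covers, so calls can outnumber reads. No tile passed an adjusted p under 0.05 with a difference of at least 10 points, so the share called was 0%, 0 higher and 0 lower in inHB. The smallest adjusted p was 0.132. At an unadjusted p under 0.05, 2847 tiles, 4.82% of those tested, were below the threshold at any size of difference. With at least 10 points as well there were 488 (0.826%), of which 194 (0.328%) were higher and 294 (0.497%) lower in inHB. limma on logit levels also called 0 tiles and had 455 at an unadjusted p under 0.05 and 10 points. The median difference was 0.052 points, and 50.7% of tiles were higher in inHB. 90% of tiles differed by between -5.77 and 5.34 points.

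Every inHB embryo lay above every normal embryo of its own diet in 1685 tiles (2.85%) and below in 1673 (2.83%). Above all 7 normal embryos lay 510 tiles (0.863%), and below all of them 482 (0.815%). Tiles in the KO against WT hyper regions had a median difference of 0.0619 points and a median size of 2.29 points, beside 2.03 for all tested tiles. Of these 13484 tiles, 1.35% had an unadjusted p under 0.05 and 10 points, and of the 45624 tiles outside them 0.671%. Their median level in normal KO embryos was 71.9%, against 91.1% outside, and the part of that in the shares was not tested. Leaving out an embryo gave 0 to 3 called tiles, with 1 called without inHB KO replicate 4. Without that embryo 66140 tiles could be tested.

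**Figure D4:**
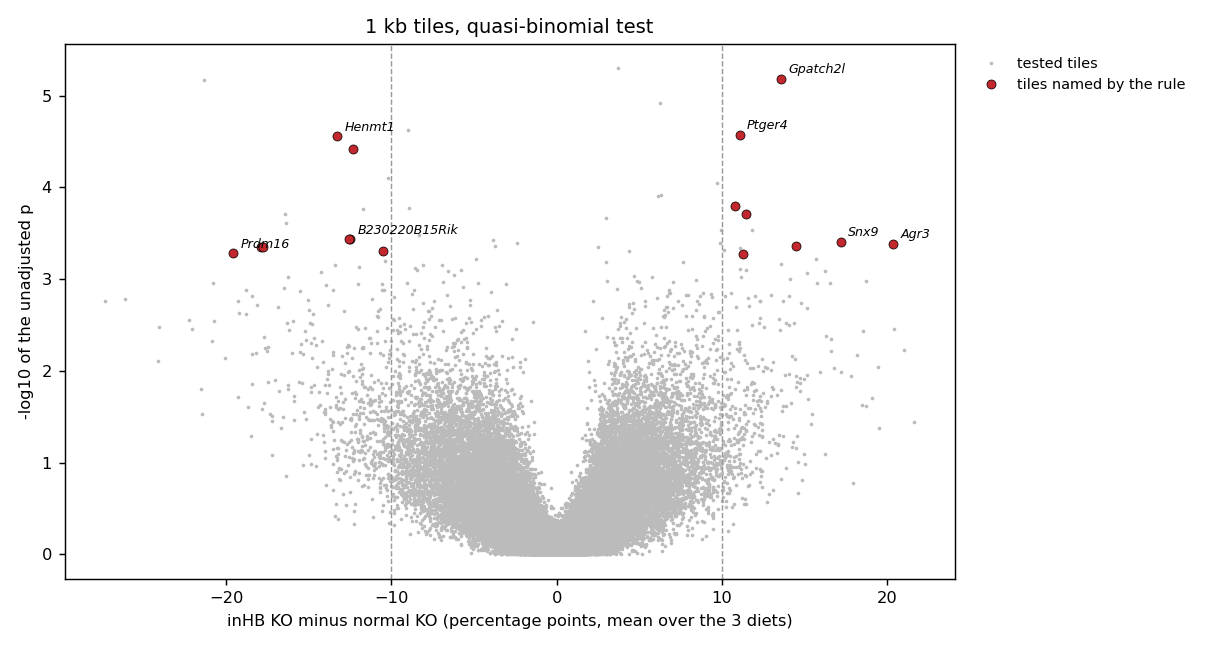
Difference of each tested tile (x axis, inHB minus normal KO in percentage points) against -log10 of its unadjusted p (y axis), with the 16 named tiles in red and dashed lines at 10 points either way. The smallest adjusted p was 0.132, so no point passes the test.

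With no call, tiles were named by a rule: the 8 higher and 8 lower tiles with the smallest p among those of at least 10 points in which every inHB embryo lay beyond the normal embryos of its diet, at most 1 per nearest gene. This choice rests on the compared values, so what follows describes tiles and does not support a difference. 136 tiles were eligible as higher and 201 as lower. The adjusted p of the 16 ran from 0.132 to 0.778. In 12 of them the inHB embryos lay beyond all 7 normal embryos, which the rule favours. Of all tested tiles, 0.863% lay above and 0.815% below all 7.

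The tile with the smallest p of the 16 lay between genes on chromosome 12 (86214001-86215000), with its middle 27358 bp upstream of the start of Gpatch2l. Over its 12 CpGs the inHB embryos had 58.5, 57.6 and 56.7% on 30, 3 and 0.1 ppm, and the normal KO embryos 35.8 to 55.3% with a median of 44.9%. The difference was 13.6 points (SE 2.86, quasi-binomial adjusted p = 0.132), and the groups did not overlap. All 12 CpGs printed above were higher on average in inHB, by 4.21 to 24.3 points. Libraries labelled WT had 1.85 to 19.12% there, and 1.85 to 4.29% without the 2 that read as HET at Tet1, and the tile lies in a KO against WT hyper region. The 5 KO embryos with a neural tube defect had 43.6 to 63.2%. With TP36.6 added the difference was 6.18 points.

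At Ptger4, which encodes a prostaglandin E2 receptor, the promoter tile (chromosome 15, 5243001-5244000) rested on 1 embryo. The inHB embryos had 10.3, 15.1 and 34.2% on 30, 3 and 0.1 ppm, and the normal embryos 5.88 to 11.4%, median 8.93%. The 0.1 ppm embryo stood alone, and the 30 ppm embryo lay inside the range of all normal embryos. KO embryos with a neural tube defect had 9.71 to 20.9%. The difference was 11.1 points (adjusted p = 0.233), and 3.79 points without inHB KO replicate 2. The SE of 1.5 points comes from normal embryos alone and leaves out the inHB spread, an SD of 12.6.

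Gpr161 encodes a receptor of the primary cilium that restrains Sonic hedgehog signalling in the neural tube. Its intronic tile (chromosome 1, 165316001-165317000) had 96.2, 91.3 and 90.5% in inHB on 30, 3 and 0.1 ppm, above the 77.1 to 84.6% of normal embryos (median 82.7%). The difference was 10.8 points (SE 1.21, adjusted p = 0.671). It was 6.09 points at 10 reads per CpG and 4.94 with TP36.6 added. Both groups lay above the 36.1 to 56.6% of libraries labelled WT (36.1 to 54.6% without those 2). KO embryos with a neural tube defect had 81.6 to 92%, so levels above the normal range were not particular to inHB.

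The promoter tile of Egf, a growth factor, was nearly unmethylated in normal embryos, at 0 to 7.69% with a median of 2.02%. inHB embryos had 20.3, 10 and 12.7% on 30, 3 and 0.1 ppm. Depth over the tile was 24 to 143 CpG calls per embryo. The difference was 11.5 points (SE 1.93, adjusted p = 0.678). The 4 CpGs of the tile, printed above, span 30 bp, so 1 read can give up to 4 calls. WT embryos had 0 to 5.56%, with or without those 2 libraries, and KO embryos with a neural tube defect 0 to 9.09%.

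The other 4 higher tiles included an intron of Snx9, a sorting nexin of endocytosis (17.2 points), and the promoter of Def6 (14.5). The remaining ones lay 40120 bp from the start of Agr3 (20.4) and 519 bp from that of Zmat4 (11.3). With TP36.6 added, Snx9 was at 8.87 and Def6 at 7.22 points. The tile near Agr3 was the largest of the 8. It had 88.6, 97.1 and 90% in inHB on 30, 3 and 0.1 ppm, against 62.2 to 82.5% in normal embryos, over 30 to 75 CpG calls. KO embryos with a neural tube defect had 73.3 to 92.3% there, also reaching above the normal range.

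Of the lower tiles, the one with the smallest p covered the start of Henmt1, an RNA methyltransferase that protects piRNAs in germ cells (chromosome 3, 108940001-108941000). The inHB embryos had 55.9, 65.3 and 58.5% on 30, 3 and 0.1 ppm, and the normal embryos 68 to 82.2%, median 72.2%. The difference was -13.3 points (SE 3.35, adjusted p = 0.233) over 13 CpGs, and the groups did not overlap. Libraries labelled WT, at 35.1 to 54.6%, or 35.1 to 40.9% without those 2, lay below both. KO embryos with a neural tube defect had 58.9 to 81.5%.

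Prdm16 encodes a zinc finger transcription regulator of neural stem cells and brown fat. Its intronic tile (chromosome 4, 154456001-154457000) had 28, 32.9 and 29.1% in inHB on 30, 3 and 0.1 ppm. Normal KO embryos had 40 to 63.8%, median 48.3%, so the groups did not overlap. The difference was -19.6 points (SE 7.1, adjusted p = 0.778) over 5 CpGs with 25 to 123 CpG calls per embryo. WT embryos ranged from 8 to 46.7%, with or without those 2 libraries.

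Lower by 10.5 to 17.9 points were the other 6 tiles, given by nearest start site and distance from it. Closest were Vamp9 (184 bp), Ltk (1019 bp) and 1200007C13Rik (5854 bp). Farther off were B230220B15Rik (38785 bp), Iigp1 (43817 bp, a tile that overlaps Gm6960) and Ajap1 (124689 bp). At Ltk, a receptor tyrosine kinase, the inHB embryos had 58.5, 40.9 and 36.9% on 30, 3 and 0.1 ppm and overlapped the normal range of 46.7 to 65.5%, and the difference of -12.6 points was -5.98 at 10 reads per CpG. Its 9 CpGs averaged -4.17 points taken one by one. 3 of these CpGs were nearly unmethylated in both groups, and the pooled value weights each CpG by its reads. The other 15 tiles were within 1.5 times of their pooled value on that measure. At the tile near Ajap1 they had 60.7, 63 and 71.9%, below the 74.8 to 87.5% of normal embryos. 8 of the 16 tiles lay in promoters, 3 in introns and 5 between genes. Of all 59108 tested tiles, 12590 lay in promoters, 11203 in exons, 16177 in introns and 19138 between genes.

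HET embryos of the 30 ppm diet give the same phenotype label in other animals: 2 inHB against 3 normal. Of the 16 tiles, 7 differed in HET in the direction seen in KO, 5 of the 8 higher and 2 of the 8 lower ones. The median size was 1.83 points in HET and 12.9 in KO, where the size chose the tiles. In both litters with an inHB HET embryo and a normal HET littermate, 2 tiles kept the KO direction. No test was run on these 5 embryos.

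**Figure D5:**
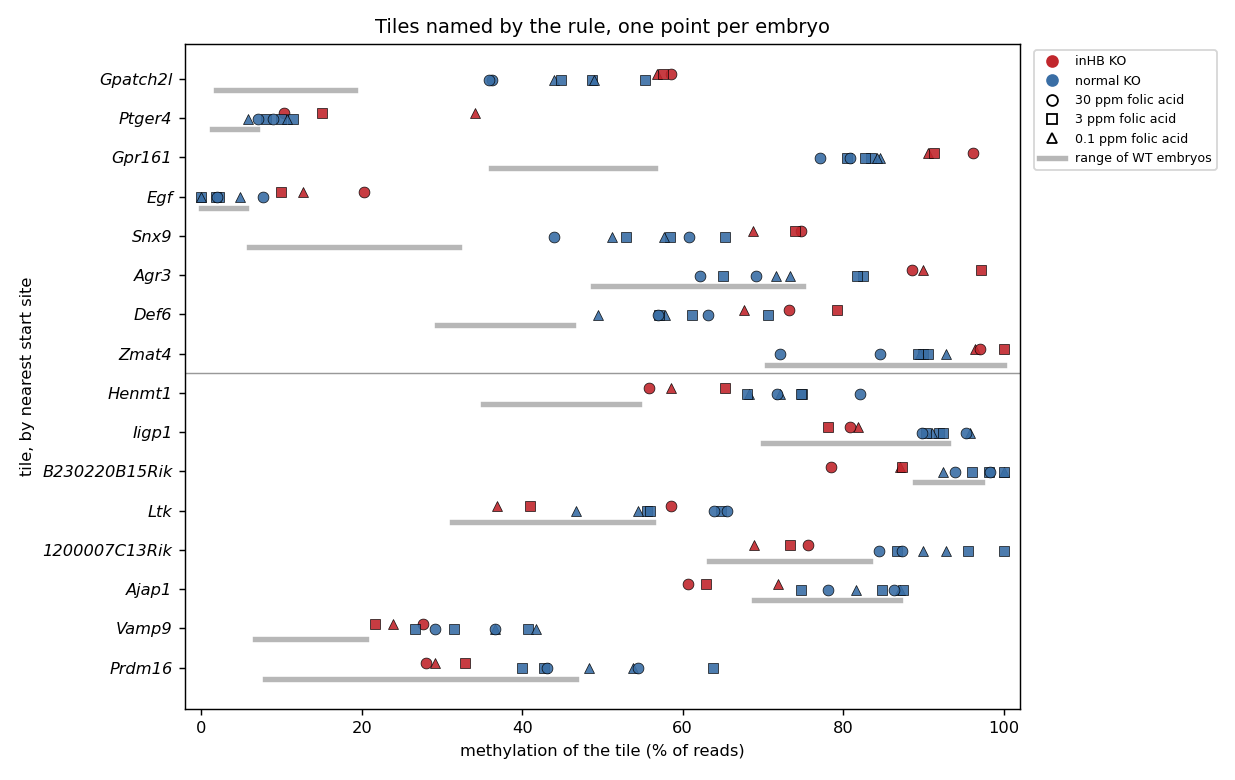
Methylation (% of reads, x axis) of the 16 named tiles (y axis, by nearest start site) in each inHB KO (red) and normal KO (blue) embryo, with symbols for diet and a grey bar for the range of all libraries labelled WT. The 8 upper tiles were higher and the 8 lower ones lower in inHB, by 10.5 to 20.4 points.

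The genes of the midbrain-hindbrain boundary were then followed one by one. All 32 genes of the list had shared CpGs in the gene or 1 kb upstream. Over each gene, inHB minus normal ran from -0.406 to 0.368 points with a median of 0.0169, with 16 genes higher and 16 lower. En1, one of the Engrailed genes, had the largest positive value, from a median of 0.799% in normal embryos. Its inHB embryos had 1.13, 1.36 and 1.19% on 30, 3 and 0.1 ppm, above the 0.587 to 1.1% of normal embryos. En1 stands out here as the top of 32 genes, and no test was run on it. Irx2 had the largest negative value, with 0.773, 0.647 and 0.631% in inHB and 0.603 to 1.5% in normal embryos. Otx2, the midbrain determinant, had a normal median of 1.54% and differed by -0.185 points. Gbx2, its hindbrain counterpart, differed by 0.0662 points and Wnt1 by 0.0525. 12 of the 32 genes had no tested tile, and their normal medians were at most 1.99%.

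In the 20 genes with a tested tile, the tested tile nearest the gene start differed by -2.17 to 4.17 points. The smallest unadjusted p of these 20 tiles was 0.148 (quasi-binomial test). Many of them do not cover a start region. Their middles lay from 98 bp (Pax8) to 123641 bp (Pbx3) from the gene start, at 6414 bp for Fgf8 and 5456 bp for Pax2. For Fgf8, the signal of the boundary, the tile had 0, 1.12 and 6.06% in inHB on 30, 3 and 0.1 ppm and 0 to 3.7% in normal embryos. For Pax2 it had 28.8, 30.1 and 28% in inHB and 23.6 to 35.9% in normal embryos. The groups overlapped in both.

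Over all 82 tested tiles of this list, the median difference was -0.364 points, beside 0.052 for all tiles. With an unadjusted p under 0.05 and 10 points there were 1 higher tile and 1 lower tile, 2.44% against 0.826% of all tested. The higher one lies in Pax8, a paired box factor, with 88.3, 95.7 and 93.5% in inHB and 73.6 to 90.6% in normal embryos.

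The other lists held 0 called tiles each. By an unadjusted p under 0.05 and 10 points, 1 of 71 tiles of hindbrain segments and rhombic lip was lower, and so was 1 of 77 tiles of germline genes. None of the 40 tiles of forebrain and midbrain patterning, 189 of cranial neural tube closure, 86 of folate and one-carbon metabolism, 56 of DNA methylation enzymes or 67 of solute carriers qualified. Their median differences lay between 0.0365 and 0.634 points.

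In folate metabolism the largest difference was at Mthfd1, which interconverts folate one-carbon units, at -9.95 points (SE 8.3, adjusted p = 0.999). In neural tube closure it was at the promoter of Phactr4, a phosphatase and actin regulator whose loss leaves the neural tube open. There the inHB embryos had 55.9, 81 and 73.5% against 50 to 61.5% in normal embryos, so the 30 ppm embryo lay among the normal ones.

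Among the DNA methylation enzymes the largest difference was at the promoter of Neil1, a DNA glycosylase of base excision repair. The inHB embryos had 91.4, 94.1 and 100% on 30, 3 and 0.1 ppm, above all 7 normal embryos at 76.9 to 91.0% (median 88%). The difference was 8.11 points (SE 3.27, adjusted p = 0.999), and 0.863% of all tested tiles lay above all 7 normal embryos. In the other lists the groups overlapped at the tile with the largest difference. Among these were 8.49 points at Dmbx1, a homeodomain factor of the midbrain, -9.73 at Slc8a2, a sodium-calcium exchanger, and -10.5 at the promoter of Hormad1, a meiotic chromosome protein. At Hormad1 the 0.1 ppm inHB embryo had 67.9% and the other 2 had 84.8 and 93.8%, against 82.6 to 100% in normal embryos.

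Imprinted loci held 4 of 147 tiles with an unadjusted p under 0.05 and 10 points, 1 higher and 3 lower (2.72%, against 0.826% of all tested). At the promoter of Mest, expressed from the paternal copy, the inHB embryos had 36.1, 33.3 and 33.3%. The normal embryos had 33.3 to 63.6%, and depth was 21 to 72 CpG calls per embryo. At Meg3, a noncoding RNA of the maternal copy, they had 35, 45.78 and 37.7% against a normal KO median of 48.7% and a highest value of 61.2%. At Snrpn they had 44.8, 20.5 and 21.7% against 17.5 to 62.6%. The higher tile was at Cdh15, with 85.9, 90.5 and 79.5% against 48.4 to 82.1% (adjusted p = 0.816). The groups overlapped in all 4.

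The likeness of whole profiles was compared between pairs of embryos. After counting error was taken off, the root mean square difference per tile averaged 3.48 points among the 3 pairs of inHB embryos, 3.36 over the 21 inHB-normal pairs and 3.38 over the 21 normal pairs. The gap between the first pair of values, 0.114 points, had an exact two-sided permutation p of 0.667. A tile 20 points or more beyond all 9 other embryos, with 50 CpG calls in each, occurred 3, 0 and 0 times in inHB KO replicates 2, 3 and 4. It occurred 0 to 14 times in a normal embryo, most often in normal KO replicate 2.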

How the data were processed

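Single E11.5 brains were profiled by oxidative bisulfite RRBS. Per the study's methods, the authors trimmed reads with Trim Galore 0.6.10, aligned them to mm10 with Bismark 0.24.1 and removed duplicates with UMI-tools. The authors deposited, for each CpG, the methylated fraction and the count of reads, and KO against WT regions called with methylKit whose score column is 0 throughout, so their positions alone were used. Deposited positions count from 0, since all 1050263 shared positions then fall on a genome CG, and are given here from 1. Fraction times count gave methylated reads.

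CpGs needed 5 reads in all 10 embryos. Tiles (1 kb, 3 or more CpGs, SD of 2 points or more) were tested with a quasi-binomial F test, diet as covariate, dispersion moderated with limma's squeezeVar method (minimum 1), Benjamini-Hochberg adjusted, and called at an adjusted p under 0.05 and 10 points. Mean levels were compared by exact two-sided permutation within diet. Genes come from GENCODE. Named tiles follow the rule given in the text. For gene lists the tile with the largest difference is described, and for boundary genes the tested tile nearest the start, at whatever distance. The values of 2 tiles in these lists are not reported here. Embryo likeness, single-embryo tiles, gene-wide boundary levels WT ranges without 2 libraries and means over single CpGs of named tiles were added after seeing the data. The members, gene lists and rules were chosen with earlier results of these data known. Reads carry molecular identifiers, and replicates are separate embryos. Python 3.11.15, numpy 2.4.6 and scipy 1.17.1 were used.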

Additional observations from a re-analysis of the deposited data

Results flagged for a closer look

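In 62 sets of 7 normal KO values checked for a value far from the others, 5 stood apart by Dixon's criterion, and chance alone gives about 1 in 20. Normal KO replicate 7 (30 ppm) had 34.04% over imprinted loci, against 35.47 to 36.1% in the other 6. The same embryo had 72.2% at the tile near Zmat4, against 84.6 to 92.8%. Normal KO replicate 2 (0.1 ppm) had 9.23% at the Lmx1b tile, against 0.917 to 3.51%, and 70.8% at the Spry2 tile, against 41.7 to 51.8%. Normal KO replicate 6 (30 ppm) had 89.8% at the Lef1 tile, against 94.7 to 97.3%.

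In 3 of the 9 gene lists, out of 17 CpG sets checked, the inHB embryo lay above every normal KO embryo of its diet on 1 diet and below on another. Differences between diets were not tested. Each diet had 1 inHB embryo against 2 or 3 normal ones, so random order alone often gives this pattern, and its expected share was not computed. Over hindbrain segments and rhombic lip the difference was 0.177 points on 30 ppm and -0.329 on 0.1 ppm. Over forebrain and midbrain patterning it was 0.0866 on 30 ppm and -0.121 on 0.1 ppm. Over germline genes it was 1.36 on 3 ppm and -0.446 on 30 ppm.

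Outside the autosomes, the Y calls of inHB KO replicate 4 were 0.0484% of its autosomal calls, 6 times the median of embryos labelled female (0.00718 to 0.00922%), beside X methylation and X dose in or near the female range. The cause was not tested.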

How the results depend on the processing

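With 3 inHB embryos, 1 per diet, the exact tests within diet on all 10 embryos cannot go below p = 0.0278. With labels permuted over all diets the smallest possible exact p was 0.00833. Called tiles stayed at 0 under 11 other settings of the test or threshold, and 1 tile, at Ptger4, was called with 10 reads per CpG or with 500 bp tiles. Without 1 embryo, 0 to 3 tiles were called: 3 without inHB KO replicate 2, 3 or without normal KO replicate 3, 2 without normal KO replicate 4, and 1 without inHB KO replicate 4 or normal KO replicates 1 or 2. The tiles near Ttc34, Cacna2d2, Gm45894, Miip, Cbln1, Lmbrd1 and Pdgfd among them were outside the naming rule and are named after their values were seen. Gm45894 is also the start nearest to the Cdh15 tile described above, so the tile called near it, without inHB KO replicate 2, may be that one. Tiles with an unadjusted p under 0.05 and 10 points numbered 488 with all embryos, 0.826% of those tested. There were 144 with at least 5 CpGs (0.617% of 23320 tiles) and 190 at 10 reads (0.64% of 29677). With the dispersion of each tile alone there were 285 (0.482%). Without inHB KO replicates 2, 3 or 4 in turn there were 892 (1.47%), 918 (1.55%) and 1116 (1.69%). The difference is then a mean over fewer diets, those that still hold an inHB embryo, so these counts are not like for like. The share with an unadjusted p under 0.05 at any difference was 4.88, 4.89 and 4.88%, against 4.82% with all embryos. With TP36.6 added, 42 such tiles were higher and 556 lower, and the median over all tiles was -0.712 points.

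Of 232 refits of the named tiles, 5 had an adjusted p under 0.05: Ptger4 in 3, Gpatch2l and Henmt1 in 1 each. The rule that chose these tiles largely fixes their direction. With TP36.6 added, Gpatch2l, Gpr161, Snx9 and Def6 moved by over 1.5 times, to 6.18, 4.94, 8.87 and 7.22 points, as did Gpr161 (6.09) and Ltk (-5.98) at 10 reads and Ptger4 (3.79) without inHB KO replicate 2. Mean methylation changed sign without 1 embryo in 3 of 10 cases, between -0.0766 and 0.0596 points, and was -0.443 with TP36.6 added, -1.19 with reads pooled and -2.94 over each embryo's own CpGs. Without inHB KO replicate 4, a choice made after seeing the data, these last 2 were 0.429 and -0.97. Levels at hyper regions ran from -0.145 to 0.208 points without 1 embryo. They changed sign with pooled reads (-0.128) and with TP36.6 added (-1.84). The setting with labels permuted over all diets takes the plain difference of group means, without regard to diet, and this was -0.0465. With TP36.6, exons (-0.588), neural tube closure genes (-0.12) and boundary genes (-0.174) changed sign, and boundary genes did so at 10 reads (-0.0144). Without 1 embryo, signs changed for promoters (-0.046 to 0.039), introns (-0.181 to 0.0675), intergenic CpGs (-0.192 to 0.0406), CpG-dense tiles (-0.0312 to 0.0315), CpG-poor tiles (-0.136 to 0.089), boundary (-0.0491 to 0.0667), hindbrain (-0.193 to 0.0607) and forebrain genes (-0.0578 to 0.0459), imprinted loci (-0.527 to 0.0644) and germline genes (-0.0632, without inHB KO replicate 4, to 0.839). None of these values passed its exact permutation test. Without an inHB embryo none could, since the smallest possible p was then 0.0833 or 0.111. The causes were not tested. No paired analysis was possible because replicate numbers only name embryos and 1 litter held both phenotypes.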
